A study of Homo sapiens with 4 samples.

Results

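The RIG-I-like receptor pathway was examined here as 10 genes: the receptors RIGI (DDX58 in older annotation), IFIH1 and DHX58, the ubiquitin ligase TRIM25, the adaptor MAVS with TRAF3, the kinases TBK1 and IKBKE, and the transcription factors IRF3 and IRF7. They were chosen by name, because DDX24 is a reported regulator of the pathway, at a time when earlier results of these data were known. All 10 were listed in the SiHa table among 12189 genes, and 9 in the MS751 table among 12036 genes, where IRF7 was not listed. SiHa and MS751 are established human squamous cell carcinoma lines of the cervix. In each line RNA was taken on day 2 from cells that had received a control siRNA (siControl, labelled WT) or siDDX24-1, an siRNA against DDX24 (labelled DDX24 knockdown). The siRNAs were delivered with a lipid reagent, so all 4 groups had been transfected with short double-stranded RNA. Each group was 1 library, and the knockdown rests on 1 siRNA. Differences within a line therefore have no replicate check, and their 95% intervals hold nothing beyond counting error.

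RIG-I-like receptors are helicases of the cytoplasm that bind double-stranded RNA, such as that made by replicating viruses. RIG-I, the product of RIGI, and MDA5, the product of IFIH1, carry signalling domains that engage MAVS on mitochondria, whereas LGP2, the product of DHX58, lacks those domains and adjusts the activity of the others. MAVS recruits TRAF proteins and the kinases TBK1 and IKKε, which phosphorylate IRF3 and IRF7, and these factors turn on interferon genes. Interferon in turn raises the transcription of RIGI, IFIH1, DHX58, TRIM25 and IRF7. DDX24 is a nucleolar DEAD-box helicase that has been reported to bind RNA and restrain this signalling.

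The listed counts summed to 17706636 and 20116334 in the SiHa siControl and siDDX24-1 libraries and to 13159701 and 14663145 in those of MS751. DDX24 was 6.55-fold lower in the SiHa knockdown library and 2.30-fold lower in that of MS751. Every listed gene exceeded 1 CPM (a count scaled to its library's depth) in both libraries of its line. A gene silent in either library is thus missing rather than listed at 0, also where the other library held it. The labelled cell type was checked on 9 epithelial markers. SiHa listed 6 of them, with summed levels of 3434 and 2882 CPM, and MS751 listed 3, with 129 and 159 CPM. The squamous markers KRT5, KRT14 and TP63 were in neither table, and KRT17, KRT19 and CDH1 were missing from that of MS751. Of 8 leukocyte markers only CD14 was listed, in SiHa, where it had 3845 and 4625 counts, and PTPRC was in neither table. Fibroblast markers summed to 20.5 and 9.54 CPM in SiHa (2 of 5 listed) and to 452 and 498 CPM in MS751 (3 of 5 listed), where COL3A1 alone had 4789 and 6944 counts. Of 4 endothelial markers SiHa listed PECAM1 and MS751 none.

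All 3 receptors were listed in both lines, in different proportions. SiHa had more RIGI and IFIH1 transcript than MS751, MS751 had more DHX58, IKBKE and TRAF3, and TBK1, MAVS, IRF3 and TRIM25 differed less. To set genes beside each other, counts were divided by the length of each gene's merged exons and scaled to a fixed sum over the listed genes, the scale of TPM. In the SiHa siControl library TBK1 stood highest on this scale at 71.7 (95% counting interval 68.6 to 75.02), above 82.6% of all listed genes. RIGI followed at 59.3, then TRIM25 at 44.6, IRF3 at 39.8, IRF7 at 31.6, IFIH1 at 24.2, MAVS at 21.6, IKBKE at 9.65, TRAF3 at 4.77 and DHX58 at 4.62. The counting intervals of neighbours in this order overlapped only between IFIH1 and MAVS and between TRAF3 and DHX58. DHX58 stood above 14.7% of listed genes, near the floor of the table.

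MS751 siControl cells also had TBK1 at the top, at 60.6, followed by IRF3 at 52.6, TRIM25 at 36.1, IKBKE at 22.0, MAVS at 16.5, DHX58 at 15.7, TRAF3 at 9.25, RIGI at 7.98 and IFIH1 at 7.10. RIGI and IFIH1, second and sixth in the SiHa siControl library, were the lowest in that of MS751. With the longest transcript as length RIGI had rank 3 and IFIH1 rank 6 in SiHa siControl cells, and IFIH1 stood above TRAF3 and RIGI in MS751 siControl cells. With merged exons as length, the intervals of MAVS and DHX58, of TRAF3 and RIGI, and of RIGI and IFIH1 overlapped in MS751 siControl cells. Of the summed level of the 3 receptors, RIGI made up 67.3% in SiHa siControl cells, IFIH1 27.4% and DHX58 5.25%. In MS751 siControl cells the shares were 26.0%, 23.1% and 51.0%. The kinase TBK1 exceeded IKBKE 7.43-fold per length in SiHa and 2.76-fold in MS751.

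**Figure D1:**
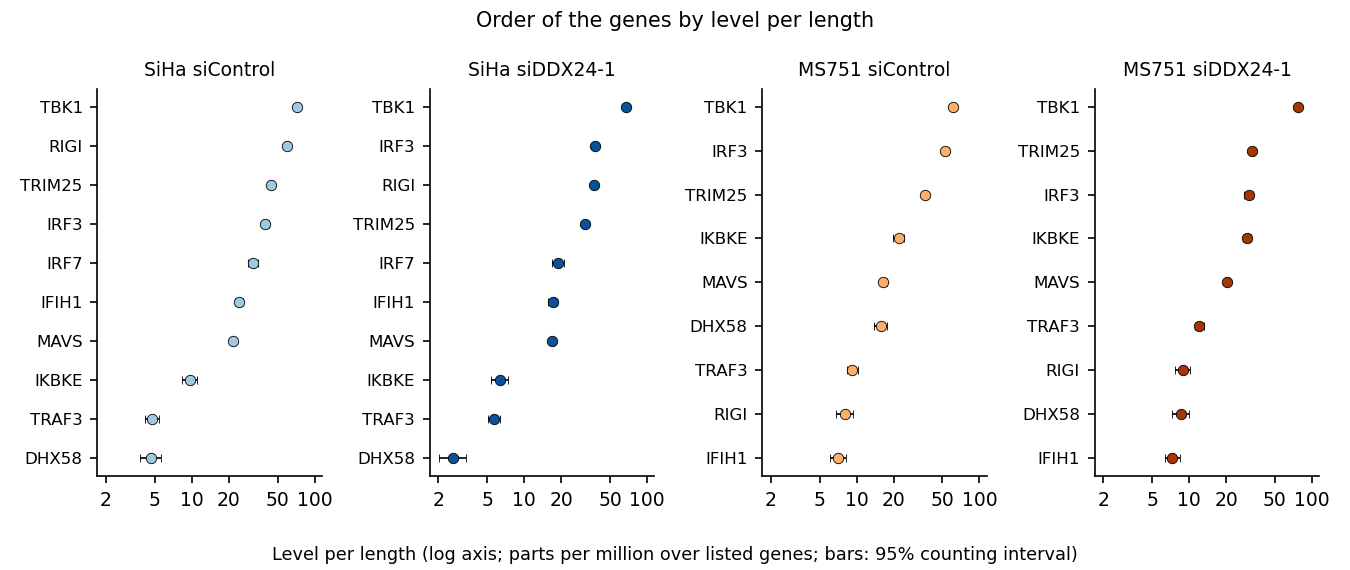
Level per length of each gene (scaled to a fixed sum over the listed genes, log axis) in the 4 libraries, ordered from highest to lowest, with 95% counting intervals. TBK1 leads in every library, while RIGI is second in SiHa siControl at 59.3 and eighth in MS751 siControl at 7.98.

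Line against line, edgeR's quasi-likelihood test over all 4 libraries, with the siRNA as a covariate, called 5 of the 9 members listed in both tables at an adjusted p of 0.05, and 35.5% of all 11112 genes tested. The 2 libraries of a line differ in siRNA and are not replicates. The p-values thus describe these libraries and do not cover how cultures of a line vary. RIGI had 86.1 CPM (siControl) and 58.0 CPM (siDDX24-1) in SiHa against 12.3 and 13.4 CPM in MS751. Both SiHa libraries lay above both MS751 libraries. The log2 difference was 2.46 (SE 0.27, adjusted p = 0.000580 by edgeR), or 5.50-fold. IFIH1 had 41.2 and 31.2 CPM in the SiHa libraries and 12.8 and 12.98 CPM in the MS751 libraries, again without overlap (log2 difference 1.47, SE 0.26, edgeR adjusted p = 0.00429).

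The other called members were higher in MS751. DHX58 had 5.92 and 3.62 CPM in SiHa against 21.3 and 11.4 CPM in MS751 (log2 difference -1.75, SE 0.32, edgeR adjusted p = 0.00489). IKBKE had 12.2 and 8.64 CPM against 29.5 and 39.1 CPM (log2 difference -1.72, SE 0.31, edgeR adjusted p = 0.00455). TRAF3 had 13.1 and 16.8 CPM against 27.0 and 34.8 CPM (log2 difference -1.04, SE 0.25, edgeR adjusted p = 0.0148). For each of these 5 genes the 2 libraries of a line lay on the same side of those of the other line. For the other 4 the log2 difference was between -0.07 and 0.10, with standard errors of 0.21 to 0.27 and edgeR adjusted p from 0.736 to 0.982. The same number of members, 5 of 9, was called with each other setting, where the share of all genes called was 32.9% with RLE size factors, 32.6% with DESeq2, 36.5% with limma, 33.3% at a mean of 5 CPM or more, 38.8% with a GC offset and 24.1% without the siRNA as a covariate. The lines also differed in the marker levels given above, and the part of those differences in the results was not tested. In such bulk libraries, fewer cells with a transcript and less of it per cell cannot be told apart.

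**Figure D2:**
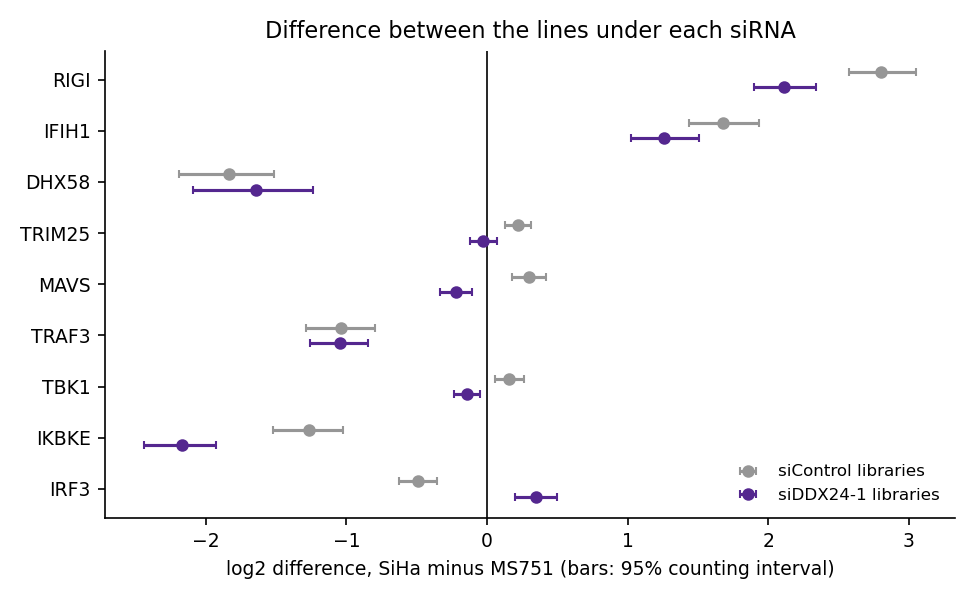
Log2 difference between SiHa and MS751 for the 9 genes in both tables, in the siControl and the siDDX24-1 libraries, with 95% counting intervals. RIGI (2.80 and 2.11) and IFIH1 (1.68 and 1.26) lie right of 0 under both siRNAs, DHX58, TRAF3 and IKBKE lie left of it, and MAVS, TBK1 and IRF3 change side. TRIM25 lies right of 0 with siControl (0.22), and its siDDX24-1 interval (-0.12 to 0.07) holds 0.

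With DDX24 knockdown no member passed 2-fold in either line, and the receptors had unequal values. In SiHa the transcripts of all 3 receptors were lower in the siDDX24-1 library. In MS751 DHX58 was lower, while the RIGI and IFIH1 counts could not be told from no change. Folds are siDDX24-1 over siControl on the log2 scale, after TMM scaling within the line. RIGI (ENSG00000107201, chromosome 9, 32455705 to 32526324, minus strand of GRCh38) had 1454 counts in the SiHa siControl library and 1075 in the SiHa knockdown library, or 80.4 and 54.6 CPM. All further pairs of counts are in this order. The SiHa log2 fold of RIGI was -0.56 (95% counting interval -0.67 to -0.44), which is 32.1% lower and at percentile 10.8 of all SiHa folds. In MS751 RIGI had 161 and 197 counts, 12.2 and 13.5 CPM, and its log2 fold was 0.15 (-0.16 to 0.46). The RIGI level in the SiHa knockdown library lay above those of both MS751 libraries.

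IFIH1 (ENSG00000115267, chromosome 2, 162267079 to 162318703, minus strand) had 695 and 577 counts in SiHa, a log2 fold of -0.39 (-0.55 to -0.23). In MS751 its 168 and 191 counts gave a log2 fold of 0.04 (-0.26 to 0.35). IFIH1 thus showed the same order of libraries as RIGI, with SiHa siControl highest, SiHa siDDX24-1 next and the MS751 libraries close together. DHX58 (ENSG00000108771, chromosome 17, 42101404 to 42112733, minus strand) was lower in the knockdown library of both lines. It had 100 and 67 counts in SiHa, a log2 fold of -0.69 (-1.17 to -0.24), and 279 and 168 counts in MS751, a log2 fold of -0.87 (-1.16 to -0.59). The MS751 value was the lowest fold among the 9 members there, 45.3% lower. In MS751 the DHX58 share of the summed receptor level was 51.0% with siControl and 34.6% with siDDX24-1, and the summed level per length was 30.8 and 24.7. In SiHa the summed level was 88.1 and 56.8.

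**Figure D3:**
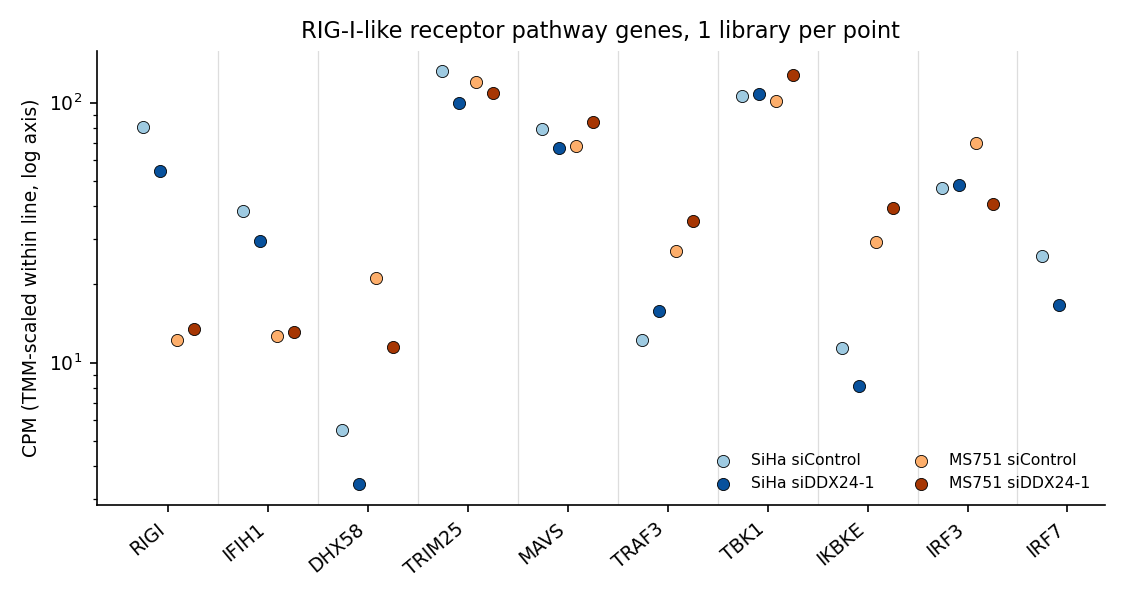
CPM of the 10 genes on a log axis, 1 point per library, scaled within each line. RIGI runs from 80.4 and 54.6 in SiHa to 12.2 and 13.5 in MS751, DHX58 from 5.53 and 3.40 in SiHa to 21.1 and 11.5 in MS751, and IRF7 has points for SiHa only.

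Stretches of promoter are shown for the members that hold a form of repeated GAAA, the letters that interferon regulatory factors are known to bind. RefSeq promoter windows (GRCh38.p14, 250 bases before to 50 after the start) were on hand for 7 of the 10 genes, without DHX58, IRF3 and IRF7. They were searched on both strands for GAAANNGAAA, found in 3.65% of 27305 promoters, and for GAAANGAAA, found in 3.22%. Either motif was in 6.55% of promoters and in 3 of the 7 members' windows, those of RIGI, IFIH1 and TRIM25. No match lay in the windows of MAVS, TRAF3, TBK1 and IKBKE. The stretches are written along the gene, with matched bases in capitals. The RIGI match (chr9:32526366-32526424, minus strand) begins 203 bases before the start. IFIH1 holds a match that begins 21 bases before it (chr2:162318685-162318730, minus strand) and 2 overlapping matches on the opposite strand that begin 159 bases before it (chr2:162318803-162318868). The TRIM25 match (chr17:56914044-56914077, minus strand) lies across the RefSeq start on the opposite strand. By the GENCODE positions the whole TRIM25 stretch is inside the gene, which runs to 56914080. The IFIH1 stretch near the start holds the GENCODE gene end, 162318703.
RIGI: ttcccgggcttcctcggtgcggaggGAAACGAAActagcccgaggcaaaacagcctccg
IFIH1, near the start: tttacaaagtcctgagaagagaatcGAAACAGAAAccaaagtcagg
IFIH1, farther from the start: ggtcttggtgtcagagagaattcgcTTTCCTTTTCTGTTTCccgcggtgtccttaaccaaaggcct
TRIM25: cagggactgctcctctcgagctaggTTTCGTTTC
A match is a description of these letters and not a bound site. How the matches relate to the folds was not tested, and DHX58, IRF3 and IRF7 had no window.

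TRIM25 and MAVS stand between the receptors and the kinases. TRIM25, a ubiquitin ligase that modifies RIG-I, was lower in both knockdown libraries, by little in MS751. TRIM25 (ENSG00000121060, chromosome 17, 56836387 to 56914080, minus strand) had 2386 and 1967 counts in SiHa (log2 fold -0.40, -0.49 to -0.31) and 1588 and 1592 counts in MS751 (log2 fold -0.14, -0.24 to -0.04). MAVS, the mitochondrial adaptor (ENSG00000088888, chromosome 20, 3846799 to 3876123, plus strand), had folds of opposite sign. It had 1430 and 1324 counts in SiHa (log2 fold -0.23, -0.34 to -0.12) and 902 and 1228 counts in MS751 (log2 fold 0.30, 0.18 to 0.43). TRAF3, a ligase that links MAVS to the kinases (ENSG00000131323, chromosome 14, 102777476 to 102911500, plus strand), was higher in both knockdown libraries by a like amount. It had 222 and 311 counts in SiHa (log2 fold 0.36, 0.11 to 0.62) and 354 and 512 counts in MS751 (log2 fold 0.39, 0.19 to 0.59). TRAF3 was the 1 member whose counting interval lay above 0 in both lines.

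The kinases differed from each other. TBK1, the kinase present in most cell types (ENSG00000183735, chromosome 12, 64451880 to 64502108, plus strand), had 1923 and 2126 counts in SiHa, a log2 fold of 0.02 (-0.07 to 0.11). In MS751 its 1337 and 1866 counts gave 0.34 (0.24 to 0.44). Over the 4 libraries TBK1 ranged from 102 to 127 CPM when all were scaled together. IKBKE, which encodes the inducible kinase IKKε (ENSG00000263528, chromosome 1, 206470476 to 206496889, plus strand), had 206 and 160 counts in SiHa, a log2 fold of -0.48 (-0.79 to -0.18). In MS751 its 386 and 576 counts gave 0.43 (0.25 to 0.62), the highest among the members of that line. The TBK1 level per length was 10.6-fold that of IKBKE in the SiHa knockdown library and 2.58-fold in that of MS751. Exons of TBK1 share 14.7% of their bases with an antisense gene and those of IKBKE 4.12% with IKBKE-AS1, and how strand was treated in counting is not stated.

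Of the transcription factors, IRF3 was lower in MS751 and IRF7 in SiHa. IRF3, which is made without stimulation and acts first (ENSG00000126456, chromosome 19, 49659569 to 49665875, minus strand), had 849 and 951 counts in SiHa, a log2 fold of 0.04 (-0.09 to 0.18). In MS751 its 924 and 593 counts gave -0.78 (-0.93 to -0.63), which is 41.8% lower. Exons of IRF3 share 19.3% of their bases with BCL2L12 on the other strand, so its counts are less certain. IRF7, the interferon-induced factor that amplifies the response (ENSG00000185507, chromosome 11, 612553 to 615999, minus strand), had 467 and 329 counts in SiHa, a log2 fold of -0.63 (-0.84 to -0.42). It was not listed for MS751, so no level or fold is given there.

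**Figure D4:**
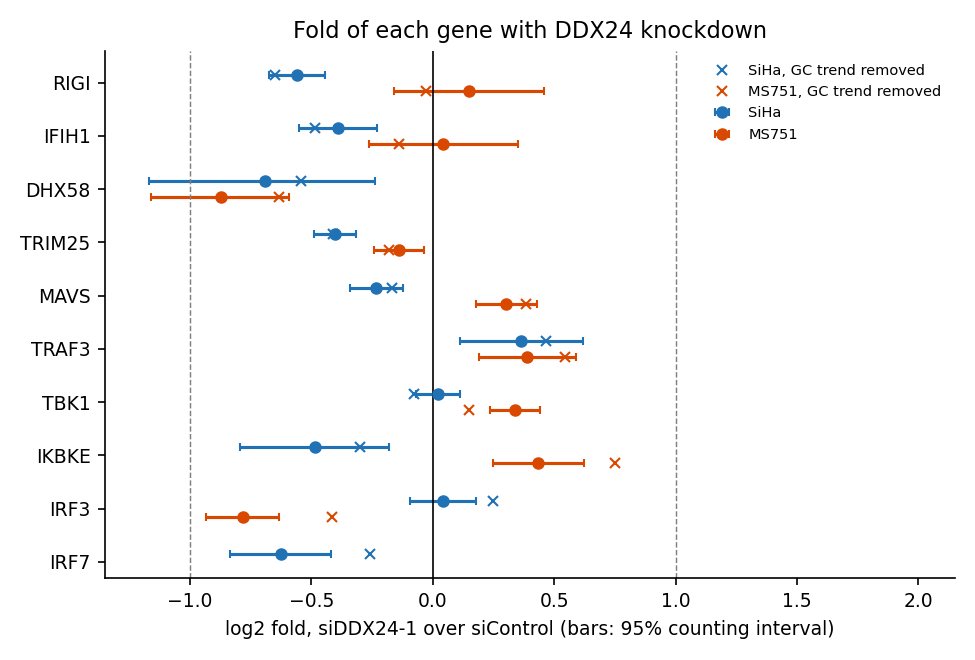
Log2 fold of siDDX24-1 over siControl for each gene, with 95% counting intervals, in SiHa and MS751, and crosses for the fold after subtracting a smooth GC trend. No point reaches the dashed 2-fold lines, DHX58 and TRIM25 lie left of 0 and TRAF3 right of 0 in both lines, and MAVS and IKBKE have intervals on opposite sides of 0.

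Counted together, 0 of 10 members in SiHa and 0 of 9 in MS751 differed by 2-fold or more, where 4.51% and 12.3% of all genes were. In SiHa the counting interval lay below 0 for 7 of 10 members and above 0 for 1, beside 30.0% and 30.2% of all genes. In MS751 it lay below 0 for 3 of 9 and above 0 for 4, beside 36.1% and 36.4% of all genes. The median fold of the members was -0.40 in SiHa and 0.15 in MS751, where the medians of all genes were -0.004 and 0.001. After subtracting a smooth GC trend the median of the members was -0.28 in SiHa and -0.03 in MS751, where its sign thus turned. Intervals lay on opposite sides of 0 in the lines for 2 of 9 members, MAVS and IKBKE, and for 12.2% of the genes in both tables. At the lower bar of 1.5-fold, 2 of 10 members were lower in SiHa (DHX58 and IRF7), beside 10.0% of all genes, and 2 of 9 in MS751 (DHX58 and IRF3), beside 18.4%. None was that much higher, beside 4.65% and 13.7%. These calls depended on base composition. After subtracting the GC trend, DHX58 (-0.55) and IRF7 (-0.26) in SiHa and IRF3 (-0.42) in MS751 fell short of 1.5-fold. RIGI in SiHa (-0.65) and IKBKE in MS751 (0.75, upward) then passed it, and DHX58 in MS751 (-0.63) still did. A fit with a separate change for each line leaves 0 residual degrees of freedom, so these differences between the lines were not tested.

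For a change shared by SiHa and MS751, edgeR's quasi-likelihood test with the line as a block called 0 of 9 members and 0.0450% of all genes (5 genes) at an adjusted p of 0.05. Of the members 1, DHX58, had an unadjusted p under 0.05, as had 12.6% of all genes. DESeq2 called 0 of 9 members and 0.873% of all genes, limma 0 of 9 and 0.0450%, and edgeR with a GC offset 0 of 9 and 0.189%. With RLE size factors or at a mean of 5 CPM or more it called 0 of 9 and 0.00%. DHX58 had a log2 fold of -0.81 (SE 0.31, edgeR adjusted p = 0.369) and was lower in 2 of 2 lines. TRAF3 had 0.36 (SE 0.25, edgeR adjusted p = 0.541) and was higher in 2 of 2 lines. The remaining members lay between -0.39 and 0.16, with edgeR adjusted p from 0.547 to 0.983. The targeted gene DDX24 itself had a log2 fold of -1.97 and was not called by edgeR (adjusted p = 0.171), though DESeq2 (adjusted p = 3.08e-05) and edgeR with a GC offset (adjusted p = 0.04755) called it.

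The members differ in base composition, and some folds had other values once it was taken into account. The merged exons of IFIH1, TBK1 and RIGI had 39.8%, 39.3% and 40.5% GC, and those of IRF3, IKBKE and IRF7 59.5%, 58.2% and 67.2%. After subtracting a smooth GC trend, the SiHa fold of IRF7 was -0.26 and that of IKBKE -0.30. In MS751 the fold of IRF3 was then -0.42, that of IKBKE 0.75 and that of TBK1 0.15. The RIGI fold was -0.65 in SiHa and -0.03 in MS751, and the DHX58 fold -0.55 and -0.63.

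Genes that act around the 10 were taken from 8 lists by role, 125 genes in all, of which 112 were listed for SiHa and 108 for MS751. Past 2-fold, 0 were higher and 11 lower in SiHa, beside 1.46% and 3.05% of all genes. The MS751 numbers were 6 higher and 6 lower, beside 3.74% and 8.55% of all genes. For the change shared by the lines edgeR called 0 of 106, beside 0.0450% of all genes, and 25 had an unadjusted p under 0.05, beside 12.6%. DESeq2 called 1 of the 106, OASL (adjusted p = 0.00485). The lists had been drawn up with results of these data known.

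Regulators of the receptors lay on both sides of 0. Of 18 activators, OASL, a cofactor of RIG-I, was lower in both lines, with 756 and 272 counts in SiHa (log2 fold -1.59) and 182 and 67 in MS751 (-1.57). DDX60, a helicase that promotes RIG-I signalling, was at -1.22 and -0.32 in SiHa and MS751. ZC3HAV1, which encodes a RIG-I cofactor, had 2558 and 2937 counts in SiHa (0.08) and 741 and 1777 in MS751 (1.12). After subtracting the GC trend its MS751 fold was 0.996. DDX3X, a helicase that binds MAVS and IKKε, had 16974 and 10184 counts in SiHa (-0.86) and 2518 and 6298 in MS751 (1.18). The RIG-I ligase RNF135 was at -0.39 and -0.48. The median fold of the activators was 0.10 in SiHa and 0.25 in MS751.

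Of 13 genes that restrain the receptors, RNF125, a ligase that marks RIG-I for degradation, was listed for MS751 alone, with 240 and 28 counts (log2 fold -3.20). RNF122, a ligase of the same kind, was at -0.52 in SiHa and -1.43 in MS751. In both lines RNF122 lay below 0 with its whole counting interval. Past 2-fold were 0 of 11 listed genes in SiHa and 2 of 13 in MS751, beside 4.51% and 12.3% of all genes. Both were lower, as were 8.55% of all genes in MS751. The list median was -0.07 in SiHa and -0.15 in MS751.

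Around MAVS and the kinases few genes passed 2-fold, which 4.51% of all genes did in SiHa and 12.3% in MS751. Of the MAVS platform, 1 of 22 did so in SiHa, IFIT3 (log2 fold -1.19), which bridges MAVS and TBK1 and is itself induced by interferon, and none of 20 in MS751. TRAF2 was at -0.09 and 0.08, and TRAF6, a ligase toward NF-kB, at 0.23 and -0.50. Of the kinase complex, HSP90AA1, a chaperone of TBK1, was at 0.28 and 1.11, the TBK1 scaffold TANK at 0.42 and -0.49 and the NF-kB adaptor IKBKG at 0.18 and 0.25. The signs of TRAF6 and TANK in SiHa and MS751 were opposite, with counting intervals apart from 0. The medians were -0.08 and 0.15 for the platform and 0.06 and 0.004 for the kinase complex, whose SiHa median was -0.03 after subtracting the GC trend. Of the factors that act with IRF3 and IRF7, 0 of 13 passed 2-fold in SiHa, with a median of -0.19. In MS751, with a median of -0.40 over 12 genes, NFKB1 did so upward (1.01, against 0.24 in SiHa) and IRF9 downward. After subtracting the GC trend neither passed 2-fold (0.96 and -0.86), and the medians were -0.0008 and -0.11.

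Interferon genes themselves were not seen. IFNB1, IFNL1 and the other 6 interferon genes on the list were in neither table. A level in only 1 library of a line would not show there. Of the signalling genes, IRF9, the DNA-binding part of the interferon-activated complex, was at -0.71 in SiHa (711 and 474 counts) and -1.01 in MS751 (366 and 200 counts). STAT2, its activating part, was at -0.51 and -0.58. The feedback inhibitor SOCS1, with 97 and 43 counts in SiHa (-1.28, or -0.88 after subtracting the GC trend), was not listed for MS751. Folds of the listed genes ran from -1.28 to 0.24 in SiHa and from -1.01 to 0.44 in MS751. The list medians were -0.29 and -0.21. Counting intervals lay below 0 for 7 of 12 genes in SiHa and above 0 for 2, beside 30.0% and 30.2% of all genes. In MS751 they lay below 0 for 5 of 11 and above 0 for 3, beside 36.1% and 36.4%. In the test of the shared change IRF9 had a log2 fold of -0.88 (edgeR adjusted p = 0.299) and STAT2 -0.57 (edgeR adjusted p = 0.369).

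Most of the listed genes that IRF3 can turn on were lower in the knockdown libraries. In SiHa all 9 listed targets had folds below 0, with a median of -1.09, and 6 were at least 2-fold lower, beside 3.05% of all genes, among them RSAD2 (117 and 23 counts, -2.42) and IFIT1 (2695 and 1060 counts, -1.47). In MS751 the 8 listed targets had a median of -0.59, and 2 were at least 2-fold lower, OASL and ISG20 (-1.10), beside 8.55% of all genes. Whole counting intervals lay below 0 for 9 of 9 in SiHa, beside 30.0% of all genes, and for 6 of 8 in MS751, beside 36.1%. The intervals of IFIT3 (-0.06, 308 and 326 counts) and RSAD2 (-0.08, 24 and 25 counts) in MS751 held 0. For the change shared by the lines edgeR called 0 of these 8 targets, and DESeq2 called OASL alone. CXCL10 was in neither table. Most of these genes also answer to interferon.

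Other nucleic acid sensors had medians of -0.20 in SiHa (20 of 22 listed) and -0.06 in MS751 (18 listed), the latter 0.02 after subtracting the GC trend. At least 2-fold lower were 3 in SiHa and 1 in MS751, beside 3.05% and 8.55% of all genes. In MS751 2 were at least 2-fold higher, beside 3.74%, and 1 after subtracting the GC trend. The oligoadenylate synthases OAS1, OAS2 and OAS3 were at -1.24, -1.04 and -1.43 in SiHa and at -0.97, -0.51 and -0.33 in MS751. The RNA helicases DDX21 and DHX9 were at 0.45 and 0.25 in SiHa and 1.64 and 1.07 in MS751, and DDX41, a helicase linked to DNA sensing, at -0.44 and -1.08. After subtracting the GC trend the MS751 folds of DHX9 (0.92) and DDX41 (-0.73) fell short of 2-fold, and that of OAS1 (-1.03) passed it. The RNA-activated kinase EIF2AK2 was at -0.22 and 0.21, the latter 0.02 after subtracting the GC trend. ADAR, which edits double-stranded RNA, was at -0.23 and 0.55.

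**Figure D5:**
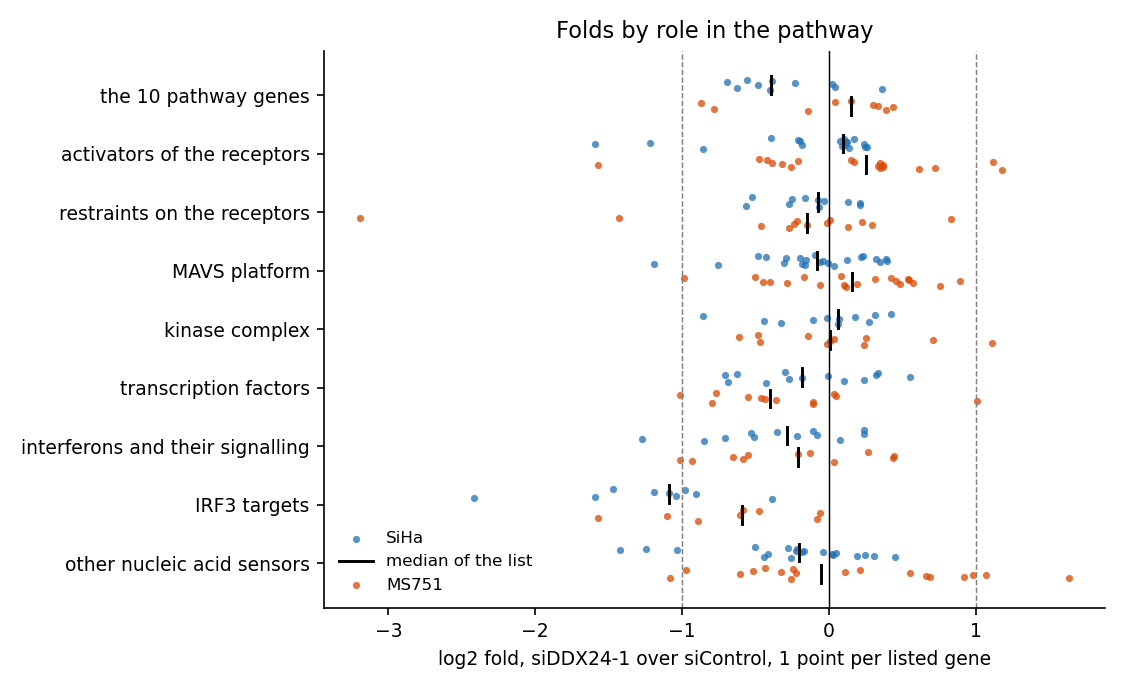
Log2 folds of the 10 pathway genes and of the 8 lists by role, 1 point per listed gene, in SiHa and MS751, with black bars at the medians and dashed lines at 2-fold. The IRF3 targets have medians of -1.09 and -0.59, and the farthest point left is RNF125 in MS751 at -3.20.

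The genes whose pattern over the 4 libraries was most like that of RIGI were found by Euclidean distance between log2 CPM values centred on each gene's mean, among 10654 other genes averaging 5 CPM or more. They were SYTL2 (distance 0.078), HOXA10 (0.161), PSD4 (0.179), KIFC3 (0.200) and PITPNM3 (0.220). RIGI itself lay 1.51 and 0.94 above its mean in the SiHa libraries and 1.29 and 1.17 below it in those of MS751. The distances rest on 4 values per gene. IRF7 was not compared because MS751 gave no value.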

How the data were processed

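Members and lists were chosen with earlier results of these data known. The authors deposited raw counts, whole numbers for each Ensembl gene. StringTie 1.3.4d, HISAT2 2.0.4, fastp 0.23.2 and GRCh38.p12 (hg38) are named, per the submitters' processing notes, without roles. The annotation, the counter and its strand setting: not given in the sources used here. Identical copies of repeated identifiers (70 rows for SiHa, 73 for MS751) were dropped. GENCODE release 29 gave positions, exon lengths and GC content, and a list of gene names gave symbols.

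Folds are differences of log2 CPM (edgeR 4.0.16, R 4.3.3, TMM within the line, prior count 1), with exact conditional (Clopper-Pearson) intervals. Intervals of levels are exact Poisson. PCR copies are not independent molecules, so both cover counting error only. The common change and the line difference were tested by edgeR's quasi-likelihood test over the 4 libraries and the 11112 shared genes, with Benjamini-Hochberg adjustment, leaving 1 residual degree of freedom. That 1 degree holds how far the siRNA change differed between the lines, so the p-values rest on no spread among replicates. With nothing on separate cultures, they do not cover how cultures vary, and technical variation cannot be told apart. DESeq2 1.42.0, limma 3.58.1 and GC trends (mgcv 1.9.3) were alternatives. Functions were tested on simulated counts. Named were the members, DDX24, list genes past 2-fold (up to 4 per list and line), 11 fixed genes, of which 1 is not reported here, and the 5 nearest to RIGI.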

Additional observations from a re-analysis of the deposited data

Results flagged for a closer look

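Several genes had folds with counting intervals on opposite sides of 0 in the lines, which 12.2% of genes in both tables did, and the difference was not tested, since each line has 1 library per siRNA. The log2 fold in SiHa minus that in MS751 was -0.54 for MAVS (95% counting interval -0.70 to -0.37) and -0.92 for IKBKE (-1.27 to -0.57). Among the surrounding genes it was -2.04 for DDX3X, -0.78 for ADAR and -0.43 for EIF2AK2. The MS751 fold of EIF2AK2 was 0.21, and 0.02 after subtracting the GC trend. TANK (0.90) and TRAF6 (0.74) differed the other way, higher in SiHa and lower in MS751 with knockdown.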

How the results depend on the processing

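Over 6 other settings, 107 of 113 member folds stayed within their counting interval and none that was apart from 0 changed sign. The other 6 moved with the GC trend removed, to -0.26 for IRF7, 0.25 for IRF3 and -0.08 for TBK1 in SiHa, and to -0.42 for IRF3, 0.75 for IKBKE and 0.15 for TBK1 in MS751. DHX58 in SiHa gave no value above a mean of 5 CPM. At 1.5-fold, with the GC trend left in, 2 members were lower in SiHa and 2 in MS751, beside 10.0% and 18.4% of all genes. Of the list genes 20 of 112 were lower in SiHa, beside 10.0%. In MS751 16 of 108 were higher and 16 lower, beside 13.7% and 18.4%. With the GC trend removed 3 list genes were at least 2-fold higher in MS751.

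In the line difference 5 members were called under all 6 alternatives, with the highest adjusted p at 0.0472 (TRAF3, line alone). In the common change 0 were called under all 5. Over all genes that test called 97 with DESeq2, 21 with a GC offset and 0 with RLE size factors or above a mean of 5 CPM. With the longest transcript as length, 17 of 38 ranks changed. The line was the block in the test of the shared change. No paired analysis by replicate number was possible because each group is 1 library, and leaving out a library leaves no residual degrees of freedom.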
